A study of Mus musculus with 23 samples.

Results

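Lung gene expression after inhalation of bacterial lipopolysaccharide (LPS) was compared with that after clean air, across all genes that could be tested. The libraries were chosen by their labels: 5 from mice labelled as given LPS alone and 3 from mice labelled as clean air controls, 8 of the 23 RNA-seq libraries of the study. All mice were male and of the inbred Balb/c strain, and each library is labelled as lung RNA with its own mouse number. Per the labels, the mice breathed either air or an LPS aerosol of 0.21 mg/ml in sessions of 10 min on each of 3 days. At 1 h after each session they were injected into the peritoneum with saline or with alpha1-antitrypsin (AAT, 4 mg/kg), and the experiment ended 6 h after the final dose. The other 15 libraries came from mice given LPS and a form of AAT, a human protease inhibitor, and enter here only through the filter on low counts, the scaling and the shared estimate of the spread between mice. The labels speak of 5 mice per group, and 3 air libraries were analysed here. They give saline as the alternative to AAT without saying which mice received it, and give no age. The lungs were taken after the third exposure, so single and repeated exposure cannot be told apart. In bulk tissue, fewer or more cells of a type cannot be told apart from less or more RNA per cell.

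LPS is a component of the outer membrane of Gram-negative bacteria and is sensed by the receptor TLR4 with its partners MD-2 and CD14. In the lung, TLR4 signals through MyD88 to the transcription factor NF-kB in alveolar macrophages and in the epithelium, and these cells release chemokines that draw neutrophils and monocytes out of the blood. The epithelium adds antimicrobial and acute phase proteins to the airway lining. Feedback proteins such as A20 (Tnfaip3) then restrain the signal.

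The tissue label was checked on lung markers. In every library the type 2 cell surfactant gene Sftpc was at 12300 CPM (counts scaled to a common library total, with TMM factors) or more and the club cell gene Scgb1a1 at 21010 CPM or more. Totals of counts in genes ran from 19.7 to 33.8 M. On the first principal component of the 8 libraries, which held 28.5% of the variance, the air mice lay from -27.3 to -25.6, LPS mice 1103, 1104 and 1105 at -2.96, 7.84 and -5.09, and LPS mice 1101 and 1102 at 32.5 and 46.8. Results that rest on these 2 mice are therefore given without them as well. Heart muscle genes varied in both groups, Myh6 from 42.1 to 209.5 CPM in air and from 51.4 to 209 CPM after LPS, and liver Alb averaged 3.69 CPM in air and 1.14 CPM after LPS. Their part in any result was not tested.

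Inhaled LPS was followed by rises in secreted defence proteins, chemokines, macrophage receptors and enzymes and mitotic genes, and by smaller falls, among them genes of cholesterol synthesis. Of 17148 genes tested with edgeR's quasi-likelihood test, 753 (4.39%) were called at a Benjamini-Hochberg adjusted p under 0.05. Of these, 465 (2.71% of all genes) rose and 288 (1.68%) fell. The rises were larger: 181 of the genes that rose and 27 of those that fell changed at least 2-fold, and the median absolute log2 fold change was 0.83 among rises and 0.52 among falls. The summed level of the genes that rose went from 21853 to 37625 CPM, and that of the genes that fell from 26930 to 17396 CPM. Median transcript GC content was 51.9% among the rises, 43.8% among the falls and 49.8% over all genes tested. With an offset that removes each library's dependence on GC content, 477 genes rose and 183 fell, so the share of rises among calls went from 61.8% to 72.3%. Of the 465 rises 387 were also called with this offset, and of the 288 falls 136 were. In every LPS mouse the genes that rose had a median log2 difference from the air mean between 0.76 and 0.87, and the genes that fell between -0.67 and -0.40. These genes were called on the same mice, so the direction of these medians was largely set by the choice.

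The number of calls leaned on the 3 air libraries. Without air 2101, 2102 or 2105 there were 473, 391 and 420 calls. Rises numbered 343, 274 and 299 without these, and falls 130, 117 and 121. Falls numbered 176 without LPS 1101 and 163 without LPS 1102. With both of these mice left out, a choice made after seeing the data, 348 genes rose and 114 fell, and 307 and 88 of these were among the calls over all libraries. A fit of the LPS and air libraries alone gave 268 rises and 86 falls. Without any 1 of the 8 libraries in turn, 219 of the 465 rises and 42 of the 288 falls were called every time. Every called gene named in the following kept its call in all 8 of these fits and without both LPS 1101 and 1102, unless a library, or the number of fits, is given beside it or its list. Genes named by size of change had to have groups that did not overlap, so their lack of overlap was fixed by the choice. Values per mouse are in CPM, in the order of air mice 2101, 2102 and 2105 and of LPS mice 1101 to 1105. Changes are log2 fold changes of LPS over air with their standard error (SE), and p-values are edgeR quasi-likelihood values with Benjamini-Hochberg adjustment.

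The 74 gene lists used here hold 1459 tested genes: 187 of them rose and 39 fell. The background for each count is the 2.71% of all genes that rose, the 1.68% that fell, and a median log2 fold change over all genes of -0.01. In 34 lists the calls were rises alone, in 10 falls alone and in 16 both, and 14 lists held no call. In the 34 lists with rises alone, 31 of 728 genes were lower at an unadjusted edgeR p under 0.05, and DESeq2 and limma voom each called 3 lower. In the 10 with falls alone, 5 of 222 genes were higher at that unadjusted p, and both tools called 1.

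**Figure D1:**
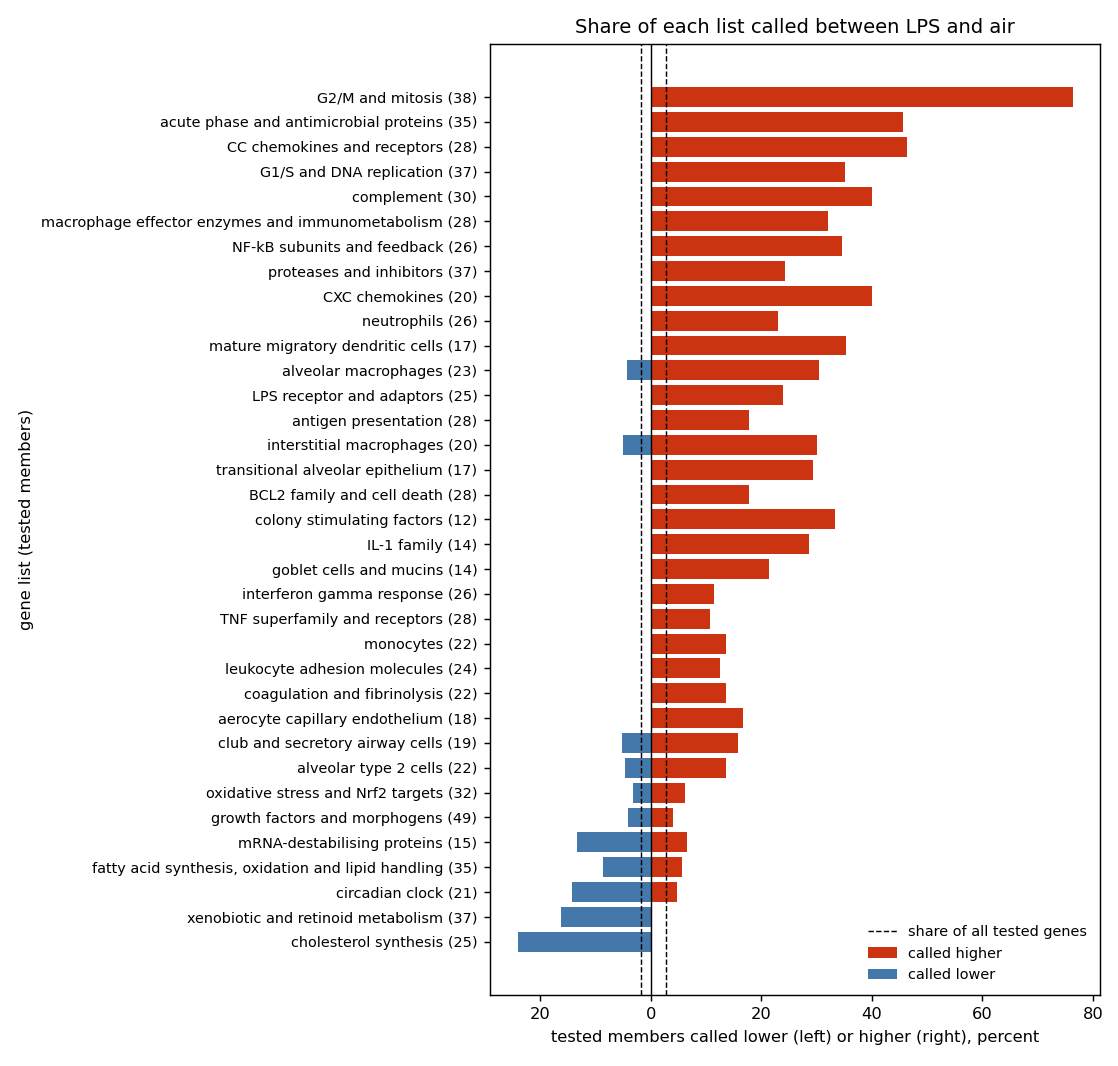
Share of the tested members of each gene list called higher (red, to the right) or lower (blue, to the left) after LPS, in percent, for lists with at least 3 calls; the number tested is in brackets and dashed lines mark the 2.71% and 1.68% of all genes. G2/M and mitosis has the longest bar to the right (29 of 38) and cholesterol synthesis the longest to the left (6 of 25).

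Some of the largest rises in CPM were in secreted defence proteins of the airway lining. Of 35 tested genes on the acute phase and antimicrobial list, 16 rose, with a median log2 fold change of 0.80 over all 35. The 16 include Zc3h12a and Steap4, which do not encode secreted proteins. Saa3 encodes serum amyloid A3, an acute phase protein made outside the liver. It stood at 4.26, 4.02 and 6.16 in air and 339, 414, 234, 196 and 248 after LPS, and rose by 5.90 ± 0.32, adjusted p = 1.76e-11. The highest air value and the lowest LPS value lie more than an order of magnitude apart. Lcn2, which binds bacterial iron carriers, stood at 114, 130 and 175 in air and 1347, 1401, 987, 1004 and 1224 after LPS. Pigr carries immunoglobulin A across epithelium into the airway. It stood at 79.7, 142 and 74 in air and 588, 545, 514, 461 and 558 after LPS, and its change was 2.44 ± 0.24, adjusted p = 2.76e-07. The LPS mice spanned a narrower range, relative to their mean, than the air mice. Hp, which encodes the haemoglobin-binding haptoglobin, stood at 1098, 1236 and 1240 in air and 2489, 2692, 1851, 1939 and 1907 after LPS, with mice 1101 and 1102 highest. The acute phase glycoproteins Orm1 (2.82 ± 0.34, adjusted p = 6.42e-06) and Orm2 (3.23 ± 0.52, adjusted p = 0.000248), the haem carrier Hpx (1.62 ± 0.25, adjusted p = 0.000184) and the antiprotease Slpi (0.88 ± 0.14, adjusted p = 0.000219) rose too. Orm1 and Orm2 are close copies, so their reads could have been split. The LPS-binding protein gene Lbp was called (0.53 ± 0.12, adjusted p = 0.00931), but not without air 2101 or air 2102 (adjusted p = 0.079 and 0.063).

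Other secreted proteins rose too. The inter-alpha-trypsin inhibitor heavy chains bind hyaluronan in inflamed tissue, and of 5 tested, Itih4 and Itih1 rose. This family was counted after the values had been seen, and Itih4 is also on the acute phase list. Itih4 stood at 116, 143 and 177 in air and 379.5, 346, 291, 412 and 331 after LPS, and Itih1 changed by 1.65 ± 0.19, adjusted p = 4.23e-06. Chil1, a chitinase-like lectin of macrophages and epithelium, stood at 841, 809.9 and 989.5 in air and 2785, 2591, 2021, 2469 and 2130 after LPS. Peptidoglycan recognition protein gene Pglyrp1 stood at 7.5, 13.1 and 11.8 in air and 31.2, 41.4, 27.7, 28.1 and 25.1 after LPS, higher in every LPS mouse than in any air mouse. Of 37 tested proteases and inhibitors 9 rose (median 0.24), among them the inhibitor genes Wfdc17 (2.39 ± 0.24, adjusted p = 5.83e-07), Serpina3n (1.2 ± 0.14, adjusted p = 5.96e-06) and Timp1 (1.48 ± 0.17, adjusted p = 4.46e-06). The genes Hal, Vnn1, Itih1, Orm1, Orm2, Hpx and Slpi, and other genes named here outside the naming rule, were chosen for naming after their values had been seen.

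To show what stands upstream of such genes, the promoter of Saa3 is printed as listed by RefSeq for build GRCm38.p6, from 250 bases before to 50 after the start of transcription. Capitals mark TTNNGNAA, a core pattern of C/EBP factors, on either strand. It lies on the minus strand at chr7:46715627-46715926.
Saa3 promoter: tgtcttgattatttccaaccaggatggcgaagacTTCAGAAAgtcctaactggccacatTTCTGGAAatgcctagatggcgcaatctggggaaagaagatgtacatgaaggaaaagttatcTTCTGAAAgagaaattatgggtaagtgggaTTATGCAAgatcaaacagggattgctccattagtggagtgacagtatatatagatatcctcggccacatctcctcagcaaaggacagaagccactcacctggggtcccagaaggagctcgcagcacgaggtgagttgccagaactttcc
The pattern begins 216, 191, 129 and 99 bases before the start. It is short and common: it was found in 40.8% of all 27025 listed promoters, in 32.4% of those of the tested genes that had one, and in 22 of the 30 acute phase and antimicrobial genes that had one (73.3%). A match describes the letters and shows no bound factor.

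Chemokines that draw neutrophils, monocytes and T cells rose. The CXC chemokine list holds 20 tested genes, including 4 receptors and the CX3C ligand gene Cx3cl1. Of the 20, 8 rose, all of them ligands (median 0.67, and 6 rises without air 2101). Of 28 CC chemokines and receptors 13 rose (median 0.69; 8 without air 2101). Cxcl3, a neutrophil chemokine, stood at 1.77, 1.1 and 0.718 in air and 34.8, 37.9, 24.3, 25.4 and 57.9 after LPS, with mouse 1105 highest. Cxcl5, made by epithelium, stood at 0.902, 0.486 and 0.642 in air and 9.74, 7.76, 5.19, 5.2 and 10.6 after LPS, and Cxcl1 at 4.22, 2.37 and 2.65 in air and 13.3, 9.06, 10.6, 11 and 18.9 after LPS. In all 3 the LPS mice lay above the air mice. Among chemokines that draw T cells, Cxcl10 changed by 1.88 ± 0.23, adjusted p = 6.78e-06, and Cxcl9 was called at 0.397, 0.422 and 0.227 in air and 1.24, 1.45, 1.31, 1.5 and 1.6 after LPS (not without air 2105, adjusted p = 0.0557). Of the CC chemokines, Ccl9, a macrophage product, stood at 26.1, 32.8 and 39 in air and 210, 205, 195, 129 and 233 after LPS. Ccl17 and Ccl22, which act on CCR4 of T cells, changed by 1.71 ± 0.24, adjusted p = 5.86e-05 and 1.33 ± 0.16, adjusted p = 5.52e-06. Ccl20, the CCR6 ligand, stood at 0.289, 0.876 and 1.1 in air and 7.85, 6.11, 3.61, 4.36 and 3.02 after LPS. The monocyte chemokines Ccl2 (0.289, 0.519 and 0.567 in air and 1.73, 1.55, 1.49, 0.802 and 4.02 after LPS) and Ccl12 (0.325, 0.843 and 0.907 in air and 1.56, 2.45, 1.55, 2.51 and 4.73 after LPS) were low throughout, and both peaked in mouse 1105. The call of Ccl2 was lost when the LPS and air libraries were fitted alone (adjusted p = 0.0544). The epithelial chemokine Cxcl15 averaged 1482 CPM in air and 1452 CPM after LPS and was not called (-0.03 ± 0.16, adjusted p = 0.95).

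Cytokine genes were called in part. Tnf stood at 2.09, 1.62 and 1.74 in air and 4.14, 5.46, 2.92, 4.81 and 8.35 after LPS, and rose by 1.49 ± 0.26, adjusted p = 0.00063. Il1b stood at 32, 21.3 and 21.1 in air and 45.9, 44.8, 41.9, 50.9 and 72 after LPS, but was not called without air 2102 or air 2105 (adjusted p = 0.0743 and 0.0706). Natural antagonists of interleukin-1 rose: Il1rn, the receptor antagonist, stood at 14.1, 11.5 and 11.8 in air and 36.6, 36.1, 39, 34.5 and 43.7 after LPS, and Il1r2, the decoy receptor, at 0.866, 0.973 and 0.567 in air and 1.96, 3.75, 3.01, 4.74 and 3.48 after LPS. In all, 4 of 14 tested genes of the interleukin-1 family rose (2 without air 2102 and 2 without air 2105). Of 12 genes of the colony stimulating factors, 4 rose: Csf2, which encodes GM-CSF (1.37 ± 0.25, adjusted p = 0.000943), Csf1, which encodes M-CSF (0.71 ± 0.10, adjusted p = 5.04e-05), Csf2rb, the beta chain shared by the receptors of GM-CSF and related cytokines (0.998 ± 0.13, adjusted p = 1.46e-05), and its close copy Csf2rb2, which serves the interleukin-3 receptor (1.03 ± 0.13, adjusted p = 9.28e-06). Tnfrsf9, the costimulatory receptor 4-1BB, stood at 1.55, 1.4 and 0.605 in air and 29.7, 22.8, 19.4, 21.4 and 26.1 after LPS, yet only 3 of 28 genes of the TNF superfamily and its receptors rose. Il6 averaged 0.201 CPM in air and 0.23 CPM after LPS (0.21 ± 0.51, adjusted p = 0.878). Il10, Il17a, Il22 and Csf3 had at most 6 counts in any of the 8 libraries and were not tested.

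The sensing machinery was unequal. Of 25 tested genes on the list of the LPS receptor and its adaptors, 6 rose (median -0.04), but 3 without air 2101 and 3 without air 2102. The 6 include the itaconate enzyme gene Acod1, which is neither receptor nor adaptor. Cd14, the coreceptor, stood at 25.3, 31.9 and 28.2 in air and 148, 156, 113, 119.8 and 133 after LPS, a change of 2.23 ± 0.16, adjusted p = 1.18e-09. Tlr2, the receptor for bacterial lipoproteins, stood at 36, 34.2 and 35.3 in air and 51.4, 50.5, 58.6, 56.5 and 57.5 after LPS. The receptor gene Tlr4 itself averaged 31.7 CPM in air and 24.6 CPM after LPS (-0.37 ± 0.26, adjusted p = 0.508), and its partner Ly96, which encodes MD-2, 2.5 CPM in air and 2.24 CPM after LPS (-0.16 ± 0.18, adjusted p = 0.701). Neither passed the test. Of 26 NF-kB subunits and feedback genes, 9 rose (median 0.27), but 6 without air 2105 and 6 in the LPS and air libraries alone. The 9 included the subunit Nfkb2 (54.9, 53 and 54.6 in air and 87, 89.1, 80.7, 90.3 and 81.8 after LPS), the inhibitors Nfkbie (0.71 ± 0.11, adjusted p = 0.000146) and Tnfaip3 (0.40 ± 0.08, adjusted p = 0.00406; 0.0883 in the LPS and air libraries alone), and the A20 partners Tnip1 (0.55 ± 0.09, adjusted p = 0.000447) and Tnip3 (1.19, 1.26 and 1.13 in air and 2.77, 1.65, 3.64, 2.41 and 4.69 after LPS). The subunit Nfkb1 (0.20 ± 0.08, adjusted p = 0.19), Rela (0.19 ± 0.12, adjusted p = 0.443) and the inhibitor Nfkbia (0.25 ± 0.12, adjusted p = 0.285) did not pass. Zc3h12a, a ribonuclease that destroys cytokine messages, stood at 16.8, 16.7 and 14.9 in air and 29.2, 31.1, 23.7, 28.5 and 28.2 after LPS.

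The promoters of Cxcl3 and Tnip3 show 2 genes of these lists that hold the NF-kB consensus, given in capitals, as RefSeq lists them for GRCm38.p6. In Cxcl3 capitals also mark the TATA box, TATAAA. Both lie on the plus strand, at chr5:90785851-90786150 and chr6:65590148-65590447.
Cxcl3 promoter: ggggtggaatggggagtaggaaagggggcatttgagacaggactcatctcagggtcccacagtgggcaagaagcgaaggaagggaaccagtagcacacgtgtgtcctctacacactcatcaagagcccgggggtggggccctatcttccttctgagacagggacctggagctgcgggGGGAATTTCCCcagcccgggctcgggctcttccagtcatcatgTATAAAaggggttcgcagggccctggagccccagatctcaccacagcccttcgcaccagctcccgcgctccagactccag
Tnip3 promoter: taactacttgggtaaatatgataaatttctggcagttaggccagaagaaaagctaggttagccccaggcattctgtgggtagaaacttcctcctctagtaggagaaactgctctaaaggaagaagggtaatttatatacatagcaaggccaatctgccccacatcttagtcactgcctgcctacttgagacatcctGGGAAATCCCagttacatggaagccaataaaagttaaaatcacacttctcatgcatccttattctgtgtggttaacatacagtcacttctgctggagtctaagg
The consensus begins 73 bases before the start in Cxcl3, with a second match shifted by 1 base, and 54 bases before it in Tnip3. It was found in 4.32% of all listed promoters and in 5.16% of those of tested genes. Among genes with a listed promoter, 10 of 21 NF-kB genes held it (47.6%). So did 4 of the 16 genes of the CXC chemokine list (25%) and 4 of 30 acute phase genes (13.3%). TATAAA was found in 7 of the 16 promoters of the CXC chemokine list (43.8%), in 14.2% of all and in 7.93% of those of tested genes.

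**Figure D2:**
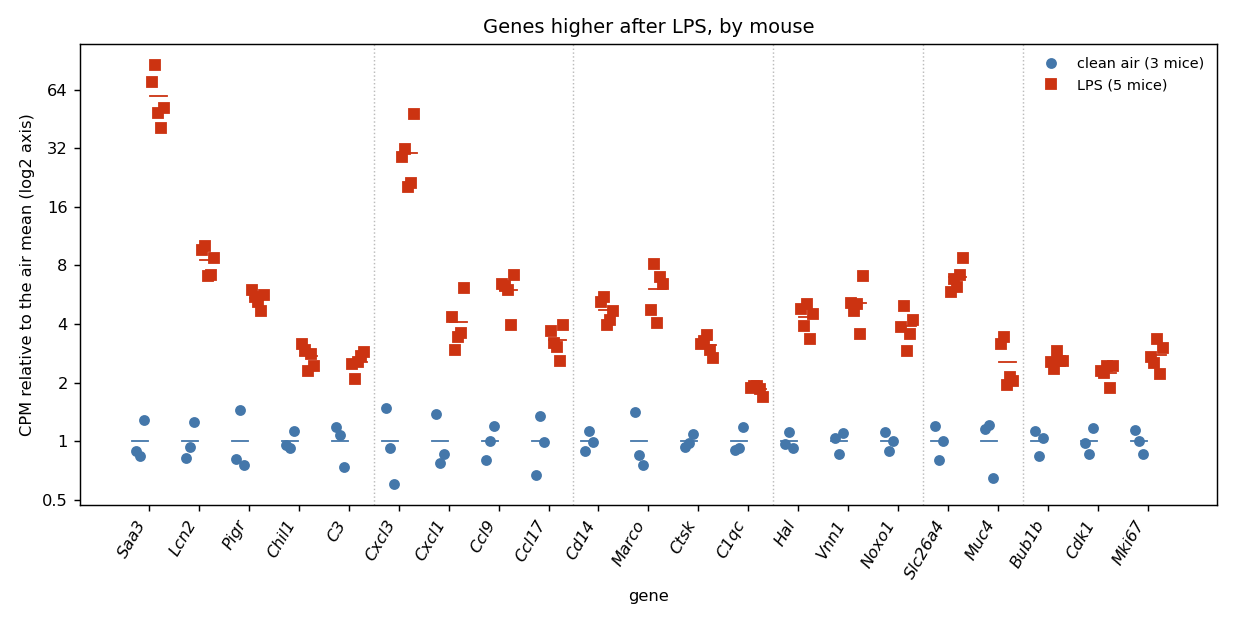
CPM of 21 genes that rose, relative to the mean of the air mice, on a log2 axis: blue circles are the 3 air mice, red squares the 5 LPS mice, short lines the group means, and dotted lines separate secreted proteins, chemokines, macrophage genes, enzymes, ion and mucus genes and mitotic genes. In each gene shown all LPS mice lie above all air mice, a condition that genes named by size of change had to meet. Fold changes run from 1.85 for C1qc to 59.5 for Saa3.

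Complement genes were called in part. Of 30 tested, 12 rose (median 0.31; 7 without air 2105). C3, the central component, stood at 823, 747 and 511 in air and 1720, 1444, 1772, 1894 and 1995 after LPS. The 3 chains of C1q, made by macrophages, rose: C1qa, C1qb and C1qc changed by 0.84 ± 0.15, adjusted p = 0.000574, 0.82 ± 0.14, adjusted p = 0.000469 and 0.89 ± 0.13, adjusted p = 7.28e-05. The receptor for the C3a fragment, C3ar1, stood at 3.46, 4.02 and 3.06 in air and 7.07, 6.51, 7.51, 6.73 and 8.03 after LPS. C4b was called (0.84 ± 0.19, adjusted p = 0.0106), but not without air 2102 or air 2105 (adjusted p = 0.0554 and 0.0809). Of 22 coagulation and fibrinolysis genes, 3 rose: F7, which starts the extrinsic pathway (34.6, 28.6 and 25 in air and 59.6, 64.5, 58.7, 60.3 and 55.9 after LPS), F10 (9.27, 8.66 and 9.56 in air and 29.5, 27.1, 23.7, 21.4 and 18.8 after LPS) and Proz, a cofactor of factor X inhibition (1.60 ± 0.24, adjusted p = 9.21e-05). The surface anticoagulant gene Thbd averaged 595 and 587 CPM (-0.02 ± 0.15, adjusted p = 0.964).

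Macrophage markers rose in part. Of 23 tested alveolar macrophage markers 7 rose (5 without air 2105) and 1 was called lower (median 0.17). Of 20 interstitial macrophage markers 6 rose (4 without air 2102) and 1 was called lower (median 0.29). The latter, Tmem119, lost its call in 5 of the 8 fits that left out 1 library and without LPS 1101 and 1102 (adjusted p = 0.197). Marco, a scavenger receptor for bacteria, stood at 2.96, 1.78 and 1.59 in air and 10, 17.2, 8.56, 14.7 and 13.5 after LPS. Itgax, the CD11c integrin chain, stood at 82.3, 68.1 and 61.3 in air and 148, 150.4, 156, 135 and 134 after LPS, and Ctsk, a lysosomal protease, at 24.4, 25.6 and 28.3 in air and 82.4, 85.4, 92, 76.7 and 69.6 after LPS. Msr1 (1.41 ± 0.16, adjusted p = 4.46e-06), Adgre1, which encodes F4/80 (0.97 ± 0.17, adjusted p = 0.000484), Cd68 (0.73 ± 0.14, adjusted p = 0.00223), Fcer1g (0.82 ± 0.15, adjusted p = 0.0013) and Gpnmb (0.87 ± 0.16, adjusted p = 0.00119) rose as well. The alveolar macrophage lectin Siglecf averaged 22.9 and 16.7 CPM (-0.45 ± 0.15, adjusted p = 0.0967), and the chitinase-like Chil3 193 and 287 CPM (0.57 ± 0.24, adjusted p = 0.21). Neither was called. Ear2, an eosinophil-associated ribonuclease that alveolar macrophages also make, was called lower (-0.61 ± 0.17, adjusted p = 0.0398), but not in 6 of the 8 fits that left out 1 library. With the GC offset Ear2 was not called either (adjusted p = 0.216). The alveolar macrophage level per mouse, the mean log2 CPM of the markers against air, was 0.28, 0.37, 0.55, 0.31 and 0.04 in the LPS mice and from -0.09 to 0.09 in the air mice. Mouse 1105 thus overlapped the air mice on this list.

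Enzymes of activated macrophages and of mucosal defence rose. Of 28 effector and immunometabolic genes, 9 rose (median 0.30). Ch25h makes 25-hydroxycholesterol, an antiviral oxysterol that also slows cholesterol synthesis. It stood at 2.49, 3.21 and 5.03 in air and 15, 23.6, 14.1, 17.6 and 28.6 after LPS. Acod1, which makes itaconate, stood at 0.253, 0.324 and 0.34 in air and 3.71, 2.35, 1.76, 3.7 and 2.77 after LPS. Il4i1, an amino acid oxidase of dendritic cells and macrophages, stood at 4.8, 5.77 and 5.78 in air and 28.4, 27.6, 20.7, 22.2 and 31.7 after LPS. Arg2 (11.9, 9.63 and 11.2 in air and 21.5, 22.9, 19.6, 18.1 and 25.4 after LPS) rose, while Nos2 averaged 10.2 and 8.65 CPM (-0.23 ± 0.16, adjusted p = 0.486) and Arg1 2.27 and 1.6 CPM (-0.52 ± 0.24, adjusted p = 0.258). The NADPH oxidase genes Cybb (0.88 ± 0.17, adjusted p = 0.00243), Cyba (0.72 ± 0.14, adjusted p = 0.00271) and Ncf4 (0.77 ± 0.16, adjusted p = 0.0056) of phagocytes and the organiser Noxo1 of epithelial oxidases (15.2, 12 and 13.5 in air and 52.3, 67.2, 39.2, 48.4 and 56.7 after LPS) rose. Outside the lists, Hal, the histidine ammonia-lyase, stood at 2.74, 3.18 and 2.61 in air and 13.6, 11.1, 14.4, 9.56 and 12.8 after LPS, and the pantetheinases Vnn1 and Vnn3 at 8.12, 6.78 and 8.69 in air and 40.5, 36.9, 39.6, 28 and 55.7 after LPS and 2.52, 4.12 and 3.67 in air and 15.2, 14.7, 15.6, 13.6 and 19 after LPS. The serine synthesis gene Phgdh (1.16 ± 0.17, adjusted p = 7.54e-05) and the mitochondrial folate gene Mthfd2 (1.05 ± 0.17, adjusted p = 0.000247) rose, as did Gpr84, a receptor for medium-chain fatty acids (0.18, 0.13 and 0.0756 in air and 1.79, 1.6, 0.596, 1.01 and 1.31 after LPS).

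Myeloid receptors of other kinds also rose. Of 23 tested C-type lectin genes named Clec, 7 were called higher: Clec4d, Clec4e and Clec4n, which bind microbial glycolipids and mannans, Clec7a, the beta-glucan receptor dectin-1, and Clec5a, Clec12a and Clec4a2. Clec4d stood at 5.66, 5.97 and 6.05 in air and 14.3, 14.7, 13.5, 16.9 and 16.9 after LPS, and Clec4e at 6.39, 8.43 and 6.73 in air and 16.6, 13.4, 14.2, 14.8 and 17.9 after LPS. Clec7a was not called without air 2101 or air 2102 (adjusted p = 0.0745 and 0.102), and Clec4a2 was called in 2 of the 8 fits that left out a library and not without LPS 1101 and 1102 (0.214). The inhibitory lectin gene Siglece stood at 5.84, 6.29 and 6.16 in air and 16.2, 17.2, 12.7, 15.5 and 16 after LPS. These families were counted after the values had been seen.

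Of 26 tested neutrophil markers, 6 rose (median 0.43), the same number in each of the 8 fits that left out 1 library. They were Il1r2, Clec4d, Clec4e, Fpr2, Lrg1 and Wfdc21, most of which other cells express too, and Il1r2, Clec4d, Clec4e and Lrg1 also belong to other lists or families here. The abundant granule genes S100a8 and S100a9 were not called: S100a8 averaged 31 and 40.4 CPM (0.38 ± 0.37, adjusted p = 0.65) and S100a9 78.2 and 109 CPM (0.47 ± 0.36, adjusted p = 0.53). Ly6g was near 0 in both groups (0.194 and 0.195 CPM), Mmp8 averaged 4.55 and 4.04 CPM (-0.17 ± 0.35, adjusted p = 0.852), and Csf3r 70.6 and 105 CPM (0.57 ± 0.24, adjusted p = 0.203). The neutrophil level per mouse was 0.40 to 0.76 after LPS and -0.18 to 0.18 in air, without overlap. The summed neutrophil markers ran from 537 to 602 CPM in air and from 723 to 927 CPM after LPS. Of 22 monocyte markers 3 rose, F10, Cd14 and Hp, and the recruitment receptor Ccr2 averaged 46.2 and 40.8 CPM (-0.18 ± 0.23, adjusted p = 0.741). Of 17 markers of mature migratory dendritic cells, 6 rose (median 0.26, and 4 rises without air 2102), Ccl17, Ccl22 and Il4i1 among them. Ccr7, which guides these cells to lymph nodes, averaged 20.4 and 17.6 CPM (-0.21 ± 0.19, adjusted p = 0.61). Of 18 other dendritic cell markers 1 was called, Sirpa, but not without air 2102 or air 2105 (adjusted p = 0.073 and 0.0616).

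Lymphocyte markers gave no call with edgeR over all libraries: T cells (22 tested), natural killer and innate lymphoid cells (19), B cells (15) and plasma cells (12). At an unadjusted p under 0.05, 4, 1, 1 and 3 of these were lower and 0, 0, 2 and 0 higher, and DESeq2 and voom each called 1 B cell marker higher. So did edgeR in the LPS and air libraries alone and in the libraries with a low share of mt-Nd6 (mt-Nd6 counts under 2% of mt-Nd5 counts). Cd3e averaged 6.69 and 7.32 CPM and Igha 90.7 and 64.6 CPM. All 12 plasma cell markers had a log2 fold change under 0 (median -0.28), and their level per mouse ran from -0.50 to -0.12 after LPS and from -0.19 to 0.26 in air, with overlap. The median over 10 red cell markers was -0.28, with no call (1 lower at an unadjusted p under 0.05, none by DESeq2 or voom).

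**Figure D3:**
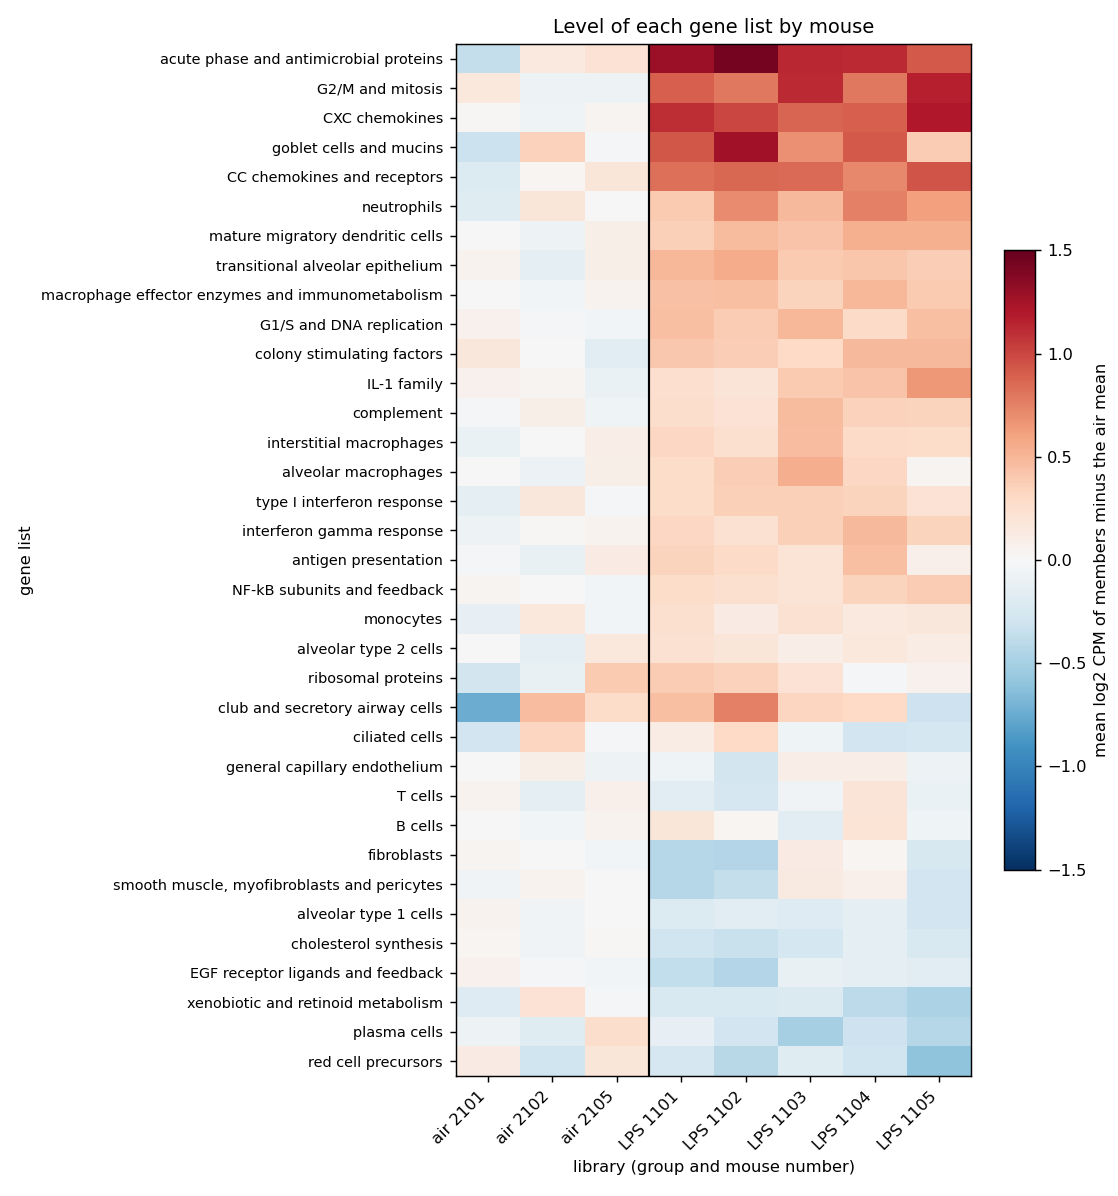
Mean log2 CPM of the tested members of 35 lists in each of the 8 mice, minus the air mean (red higher, blue lower; the black line separates air from LPS). The top rows are red in all 5 LPS mice, whereas the fibroblast and smooth muscle lists are blue in mice 1101, 1102 and 1105, and the club cell row differs most among the air mice.

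On the epithelial lists some secretory and injury-associated genes rose, and most lineage markers were not called. Of 22 tested type 2 cell markers, 3 rose, Sftpd, Muc1 and Chil1, and 1 fell, Etv5; 5 rose without air 2105, and 6 with the GC offset or with DESeq2. Sftpd, the surfactant protein that binds microbial sugars, stood at 1098, 897 and 1236 in air and 2332, 2426, 1994, 2191 and 2068 after LPS. Surfactant genes Sftpc (14820 and 14650 CPM on average) and Sftpb (5143 and 4824 CPM) were not called, with changes of -0.02 ± 0.15, adjusted p = 0.971 and -0.09 ± 0.14, adjusted p = 0.791, and Sftpa1 averaged 4775 and 6103 CPM (0.35 ± 0.11, adjusted p = 0.0698). Of 17 markers of transitional epithelium, a state between type 2 and type 1 cells, 5 rose (3 without air 2102 and 3 without air 2105). They were Lcn2, Tnip3, Cdkn1a, Sfn and Clu, of which Lcn2, Tnip3 and Cdkn1a also belong to other lists here. The keratin genes of this list were not called. Sfn lost its call in 6 of the 8 fits that left out 1 library and without LPS 1101 and 1102 (adjusted p = 0.179). Clu, which encodes the chaperone clusterin, stood at 126, 103 and 111 in air and 230.3, 237, 211, 217 and 212 after LPS. Of 19 type 1 cell markers 2 were called lower, Cav1 and Sec14l3 (the latter in 1 of the 8 fits that left out a library, and not without LPS 1101 and 1102, adjusted p = 0.234), and 18 of 19 had a log2 fold change under 0 (median -0.15). The type 1 level was -0.29 to -0.15 in the LPS mice and -0.05 to 0.05 in the air mice. Cav1, which builds the caveolae of type 1 and endothelial cells, stood at 1215, 1136 and 1228 in air and 848, 774, 985, 899 and 922 after LPS. Its call was lost without LPS 1101 and 1102 (adjusted p = 0.071), in the LPS and air libraries alone (0.0699) and with the GC offset (0.09).

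Some genes of the goblet cell and mucin list rose. Of 14 tested, 3 rose, Muc1, Muc4 and Slc26a4, and all 14 had a log2 fold change above 0 (median 0.70). Muc1 is also on the type 2 cell list. Muc4, a mucin tethered to the cell surface, stood at 30.3, 31.7 and 17.1 in air and 83.2, 90.2, 51, 56.3 and 53.7 after LPS, and Slc26a4, the anion exchanger pendrin, at 4.11, 2.72 and 3.44 in air and 20, 23.4, 21.3, 24.6 and 29.9 after LPS. Muc1 stood at 385, 333 and 317 in air and 671, 603, 472, 517 and 500 after LPS, and the secreted mucin gene Muc5b averaged 24 and 57.2 CPM without passing the test (1.25 ± 0.79, adjusted p = 0.437). Goblet and club cell levels also differed between the air mice. The club level was -0.74, 0.47 and 0.27 in air mice 2101, 2102 and 2105 and -0.31 to 0.76 after LPS, and the part of airway content in the mucin values was not tested. Over all genes 2.71% rose and 1.68% fell, with a median of -0.01. Of 293 tested solute carriers, counted after the values had been seen, 13 rose and 7 fell (median -0.01). Among them the zinc importer Slc39a4 (64.6, 62.2 and 66 in air and 138, 144, 105, 108 and 102 after LPS), the glucose transporter Slc5a1 (1.05 ± 0.14, adjusted p = 3.33e-05), the proline transporter Slc6a20a (1.49 ± 0.22, adjusted p = 9.28e-05) and the citrate and succinate transporter Slc13a3 (0.505, 0.357 and 0.227 in air and 2.93, 2.1, 1.88, 2.62 and 1.67 after LPS) rose. Has3, a hyaluronan synthase, stood at 3.32, 4.22 and 2.23 in air and 7.92, 8.76, 10.5, 8.89 and 11.4 after LPS. Of 20 tested genes of fluid and ion transport 1 rose, Slc26a4, and 1 fell, the calcium pump gene Atp2b2 (20.4, 28.7 and 18.5 in air and 12.1, 9.76, 8.83, 8.37 and 14.7 after LPS), with a median of 0.02. The channel genes Scnn1a (0.03 ± 0.13, adjusted p = 0.939) and Aqp5 (-0.04 ± 0.18, adjusted p = 0.931) were not called.

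In endothelium and stroma few genes passed. Of 20 general capillary markers 1 rose, Lpl (not without air 2105, adjusted p = 0.0513), and 1 fell, Cav1. Lpl is also on the alveolar macrophage list. Of 18 aerocyte markers 3 were called higher, Sirpa, Clec4n and Car4, a carbonic anhydrase that is also on the alveolar macrophage list (176, 179 and 216 in air and 335, 336, 310.3, 305 and 283 after LPS). Sirpa is also on the dendritic cell list and Clec4n is also among the myeloid lectin genes given above. The call of Sirpa was lost without air 2102 or air 2105 (adjusted p = 0.073 and 0.0616). Pecam1 averaged 757 and 762 CPM (0.01 ± 0.10, adjusted p = 0.982) and Kdr 495 and 505 CPM (0.03 ± 0.13, adjusted p = 0.939). Of 24 leukocyte adhesion genes edgeR called 3 higher, Selplg, Itgb2 and Cd44, but 0 without air 2102, 0 without air 2105 and 0 in the LPS and air libraries alone. Over all libraries 8 were higher at an unadjusted p under 0.05, and DESeq2 and voom each called 4. Icam1 averaged 584 and 766 CPM (0.39 ± 0.12, adjusted p = 0.0517), Vcam1 52.7 and 64.6 CPM (0.29 ± 0.11, adjusted p = 0.155) and Sele 0.661 and 0.555 CPM (-0.22 ± 0.53, adjusted p = 0.876). Fibroblast and muscle lists separated the LPS mice from each other: the fibroblast level was -0.43, -0.44, 0.12, 0.02 and -0.24 in mice 1101 to 1105, and the smooth muscle level -0.43, -0.36, 0.13, 0.08 and -0.28. The air mice lay between -0.06 and 0.05 on both. Of 24 tested genes in each, Aspn was called lower in both (-1.03 ± 0.26, adjusted p = 0.0197), but not without air 2101, air 2105 or LPS 1101 (adjusted p = 0.0816, 0.0899 and 0.0545) or without LPS 1101 and 1102 (0.13). With the GC offset Aspn was not called either (0.0919). Tgfbi was called higher in the muscle list, but not without air 2102 or air 2105 (0.0508 and 0.051) or without LPS 1101 and 1102 (0.0504).

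Cell division genes were the list with the highest share of calls. Of 38 tested G2/M and mitosis genes, 29 rose (median 1.06), 22 to 29 in the fits that left out 1 library and 29 without both LPS 1101 and 1102, and all 38 had a log2 fold change above 0. Bub1b, a kinase of the spindle checkpoint, stood at 6.03, 4.51 and 5.59 in air and 13.7, 12.6, 15.6, 13.9 and 13.9 after LPS, and rose by 1.38 ± 0.14, adjusted p = 3.3e-07. Cdk1, the mitotic cyclin-dependent kinase, stood at 3.93, 3.44 and 4.72 in air and 9.22, 9.01, 9.75, 7.53 and 9.78 after LPS. Mki67, the proliferation marker Ki-67, stood at 14, 12.2 and 10.5 in air and 33.1, 30.9, 41, 27.2 and 37.1 after LPS, with mouse 1103 highest. The mitotic kinase Plk1 (1.25 ± 0.17, adjusted p = 2.92e-05), the cyclin genes Ccnb1 (1.25 ± 0.22, adjusted p = 0.000602) and Ccnb2 (1.23 ± 0.18, adjusted p = 9.87e-05), topoisomerase Top2a (1.201 ± 0.17, adjusted p = 5.89e-05) and Cdc20, the activator of the anaphase complex (1 ± 0.14, adjusted p = 6.61e-05), rose too. Of 41 tested kinesin genes named Kif, 9 rose, all with roles in mitosis or cytokinesis where these are known, such as Kif20a (3.9, 3.11 and 3.4 in air and 7.53, 6.46, 11.4, 9.84 and 10.7 after LPS). This family was counted after the values had been seen. Of the 9, Kif11, Kif20a, Kif23, Kif2c and Kif4 are also among the 29 G2/M and mitosis genes that rose. Mouse 1103 and mouse 1105 had the highest mitosis level (1.12 and 1.16), and mice 1102 and 1104 the lowest (0.79 in each).

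G1/S and DNA replication genes moved less. Of 37 tested, 13 rose (median 0.41), but 8 without air 2101, 6 without air 2102, 4 without air 2105, 8 without LPS 1101, 7 without LPS 1101 and 1102 and 5 in the LPS and air libraries alone. Rrm2, the ribonucleotide reductase subunit of S phase, stood at 6.42, 5.68 and 5.48 in air and 11.1, 8.86, 13, 11.2 and 12.2 after LPS, and Uhrf1 (0.91 ± 0.14, adjusted p = 0.000144) and Tk1 (1.002 ± 0.18, adjusted p = 0.0013) rose. Pcna averaged 57.9 and 65.1 CPM (0.17 ± 0.10, adjusted p = 0.394) and Mcm7 34.1 and 41.4 CPM (0.28 ± 0.10, adjusted p = 0.102). The cell type in which these transcripts rose cannot be read from whole lung. Myc, a growth-promoting transcription factor, stood at 7.9, 7.75 and 7.71 in air and 15.5, 20.7, 15.3, 19.6 and 16.6 after LPS. The cyclin-dependent kinase inhibitor Cdkn1a was called (41.5, 38.6 and 39.2 in air and 49.5, 66.5, 53.6, 68.2 and 62.9 after LPS), but not without air 2102 or air 2105 (adjusted p = 0.0738 and 0.062).

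Promoters of mitotic genes share short elements, so 3 are printed, from RefSeq on GRCm38.p6, all on the minus strand: Ccnb2 at chr9:70421505-70421804, Cdk1 at chr10:69352863-69353162 and Cdc20 at chr4:118437294-118437593. Capitals mark TTTGAA, the core of the cell cycle genes homology region (CHR), and CCAAT, on either strand, so that CCAAT on the other strand reads ATTGG.
Ccnb2 promoter: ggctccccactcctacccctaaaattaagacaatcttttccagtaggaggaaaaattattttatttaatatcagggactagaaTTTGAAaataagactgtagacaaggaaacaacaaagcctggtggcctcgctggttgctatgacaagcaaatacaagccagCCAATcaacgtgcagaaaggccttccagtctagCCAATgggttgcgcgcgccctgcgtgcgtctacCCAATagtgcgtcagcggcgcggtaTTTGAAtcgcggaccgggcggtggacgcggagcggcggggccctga
Cdk1 promoter: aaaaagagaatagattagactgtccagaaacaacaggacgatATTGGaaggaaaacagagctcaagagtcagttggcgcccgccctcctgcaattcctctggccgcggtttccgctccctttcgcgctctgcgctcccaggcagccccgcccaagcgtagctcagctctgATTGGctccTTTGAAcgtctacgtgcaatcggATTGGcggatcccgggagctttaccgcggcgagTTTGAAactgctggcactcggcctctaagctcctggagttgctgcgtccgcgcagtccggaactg
Cdc20 promoter: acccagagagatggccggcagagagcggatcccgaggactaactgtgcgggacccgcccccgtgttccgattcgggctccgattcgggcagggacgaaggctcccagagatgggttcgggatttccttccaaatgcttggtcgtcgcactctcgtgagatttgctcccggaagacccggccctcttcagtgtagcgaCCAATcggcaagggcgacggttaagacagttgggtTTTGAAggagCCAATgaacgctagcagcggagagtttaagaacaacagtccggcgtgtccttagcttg
TTTGAA begins 5 bases after the start in Ccnb2 (and 167 before it), 15 and 71 bases before it in Cdk1, and 18 bases before it in Cdc20. Of 31 G2/M genes with a listed promoter, 22 held TTTGAA (71%) and 22 held CCAAT (71%), against 18.2% and 38% of all listed promoters and 12.5% and 37.9% of those of tested genes. Of 30 G1/S genes, 3 held TTTGAA (10%), 21 held CCAAT (70%) and 10 held the E2F site TTTCCCGC or TTTGGCGC (33.3%). The E2F site was found in 1.63% of all listed promoters and in 2.8% of those of tested genes.

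Few interferon genes passed the test. Of 34 tested genes of the type I interferon response 1 was called higher, Isg15 (6.1, 8.56 and 9.56 in air and 17.1, 21.5, 18.1, 15.9 and 13.5 after LPS), a ubiquitin-like antiviral protein, and its call was lost without air 2101, air 2102 or both LPS 1101 and 1102 (adjusted p = 0.109, 0.063 and 0.0851). Of these 34 genes, 30 had a log2 fold change above 0 (median 0.21), 13 passed an unadjusted p under 0.05 upward, and DESeq2 called 5 higher. The level was 0.22 to 0.35 in the LPS mice and -0.14 to 0.17 in the air mice. Of 26 interferon gamma response genes, 3 were called higher, the chemokines Cxcl9, Cxcl10 and Cxcl11 (1 without air 2105 and 5 with the GC offset). Cxcl11 was not called without air 2101, air 2102, air 2105 or LPS 1101, or without LPS 1101 and 1102 (adjusted p = 0.0998). Of 28 antigen presentation genes 5 were called higher, the immunoproteasome and peptide loading genes Psmb8, Psme2, Tap2 and Tapbp and H2-Q4 (3 without air 2101, 3 without air 2102, 12 without LPS 1105, 2 without LPS 1101 and 1102, 2 in the LPS and air libraries alone, and 10 by DESeq2). Psme2 stood at 87.9, 89.5 and 117 in air and 165, 168, 147, 146 and 141 after LPS, and Tap2 at 96, 93.4 and 83.5 in air and 131, 155, 124, 149 and 109 after LPS. Invariant chain Cd74 averaged 917 and 1193 CPM (0.38 ± 0.14, adjusted p = 0.133).

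Several survival and signalling genes rose in smaller lists. Of 28 genes of the BCL2 family and cell death 5 rose. Bcl2a1a (1.09 ± 0.17, adjusted p = 0.000146) and Bcl2a1d (1.30 ± 0.18, adjusted p = 3.9e-05) are near-identical copies of an anti-apoptotic gene of leukocytes, so their reads are uncertain. Of 25 inflammasome genes, Nlrp3 rose (7, 7.91 and 5.86 in air and 10.1, 10.6, 10.9, 11.4 and 13.3 after LPS) besides Il1b. Of 28 immediate early genes, Myc and Egr2 rose, and Fos (0.08 ± 0.16, adjusted p = 0.844) and Jun (0.10 ± 0.10, adjusted p = 0.667) did not pass. Of 29 prostaglandin and leukotriene genes, the prostaglandin E2 receptor gene Ptger4 rose (0.62 ± 0.13, adjusted p = 0.00358) and Cysltr1 was called lower (not in 5 of the 8 fits that left out 1 library, nor without LPS 1101 and 1102, adjusted p = 0.15), while Ptgs2, the inducible cyclooxygenase, averaged 20.9 and 18 CPM (-0.22 ± 0.34, adjusted p = 0.798). With the GC offset Cysltr1 was not called (adjusted p = 0.346).

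The falls were smaller, and the sterol genes were the list with the highest share of them. Of 25 tested genes of cholesterol synthesis and its control 6 fell (median -0.24; 3 without air 2101), 13 were lower at an unadjusted p under 0.05, and DESeq2 and voom each called 9. Insig1, which holds the sterol sensor SCAP in the endoplasmic reticulum, stood at 92.6, 90.1 and 101 in air and 53.3, 53.6, 52, 50.5 and 60.4 after LPS, and changed by -0.81 ± 0.11, adjusted p = 3.9e-05. Msmo1, a sterol oxidase, stood at 66.7, 69.8 and 75.5 in air and 50, 48.7, 43.2, 44 and 51.1 after LPS. Hmgcs1, which makes HMG-CoA, stood at 162, 139 and 157 in air and 112, 105, 108, 113 and 114 after LPS (not called without air 2101 or air 2105, adjusted p = 0.066 and 0.0503, or with the GC offset, 0.109). Idi1, the isopentenyl isomerase, stood at 22.2, 21.1 and 22.4 in air and 12, 8.26, 13, 12.4 and 17.8 after LPS, with mouse 1102 lowest (adjusted p = 0.0697 without LPS 1101 and 1102). In each of these 4 genes all LPS mice lay below all air mice. The regulator genes Srebf1 (0.15 ± 0.11, adjusted p = 0.506) and Srebf2 (0.02 ± 0.08, adjusted p = 0.934) were not called, nor were the fatty acid genes Fasn (0.29 ± 0.13, adjusted p = 0.239) and Scd1 (0.33 ± 0.11, adjusted p = 0.101).

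Metabolic and clock genes fell in part. Of 37 xenobiotic and retinoid metabolism genes 6 were called lower (median -0.19), but 0 without air 2102, 1 without air 2105, 3 without air 2101, 3 without LPS 1101, 2 without LPS 1102 and 2 without LPS 1104. Por, the electron donor of cytochrome P450 enzymes, stood at 458, 556 and 496 in air and 352, 396, 361, 398 and 325 after LPS (adjusted p = 0.0568 without air 2102 and 0.0628 in the LPS and air libraries alone). Cat, the peroxide-degrading catalase, stood at 502, 538 and 586 in air and 398, 326, 396, 380 and 386 after LPS. The cytochrome Cyp2f2 of club cells averaged 3196 and 2539 CPM (-0.33 ± 0.15, adjusted p = 0.229). Of 21 circadian clock genes 3 were called lower (1 without air 2105 and 1 without LPS 1101 and 1102), all outputs or repressors of the loop. Nfil3 was called higher, but not without air 2101 or air 2105 (adjusted p = 0.0552 and 0.108), without LPS 1101 and 1102 (0.0503) or with the GC offset (0.056). Dbp stood at 172, 179.5 and 224 in air and 108, 119.9, 103, 109 and 90.6 after LPS (adjusted p = 0.0658 without air 2105), Nr1d1, which encodes REV-ERB alpha, at 309, 244 and 303 in air and 150, 153, 138, 235 and 179 after LPS (0.096 without air 2101, 0.0831 without air 2105 and 0.119 without LPS 1101 and 1102), and Nr1d2 at 184, 208 and 179 in air and 105, 86.4, 142, 118 and 136 after LPS (0.0705 without air 2102 and 0.0854 without LPS 1101 and 1102). Arntl, their activator, averaged 5.89 and 8.67 CPM (0.56 ± 0.18, adjusted p = 0.0711), and Per1 220.1 and 239.9 CPM (0.12 ± 0.21, adjusted p = 0.82). The labels give no clock time of lung collection.

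Few growth factor genes were called. Of 49 tested growth factors and morphogens, Fgf1 and Igfbp3 fell and 2 were called higher (median -0.08), where 1.68% of all genes fell and 2.71% rose. Without air 2101, 0 were called higher, and limma voom called 0 higher and 3 lower. The activin subunit gene Inhba was called higher (2.14 ± 0.60, adjusted p = 0.0404) in 2 of the 8 fits that left out a library, and Wnt4 (0.54 ± 0.15, adjusted p = 0.0362) in 3 of them and not without LPS 1101 and 1102 (adjusted p = 0.247). Fgf1 stood at 377, 392 and 396 in air and 263, 271, 315, 305 and 319 after LPS (adjusted p = 0.0721 in the LPS and air libraries alone), Igfbp3, an insulin-like growth factor binding protein, at 87, 88.4 and 83.3 in air and 47.2, 54.2, 61.3, 58.1 and 55 after LPS, and Gdnf, a neurotrophic factor, at 14.7, 13.8 and 12.1 in air and 8.7, 6.26, 6.17, 7.36 and 8.85 after LPS. Of 21 genes of EGF receptor ligands and feedback, the receptor kinase signalling inhibitors Spry2 and Spry4 were called lower (median -0.30), but 0 genes without air 2101, air 2105 or LPS 1101, or without LPS 1101 and 1102. Without LPS 1105 neither Spry2 nor Spry4 was called (adjusted p = 0.0563 for each). Spry4 was not called without air 2102 or LPS 1102 either (0.123 and 0.0691), nor Spry2 with the GC offset (0.0721). Etv5, a transcription factor induced by fibroblast growth factor signals in type 2 cells, stood at 289, 250.3 and 264 in air and 195, 189.7, 195, 211 and 175 after LPS. Klf11 fell (-0.68 ± 0.13, adjusted p = 0.0019), 1 of 14 Kruppel-like factors. Outside the lists, Fhl1, a LIM protein of muscle, stood at 908, 754 and 842 in air and 588, 586, 599.6, 671 and 678 after LPS (adjusted p = 0.0847 in the LPS and air libraries alone), and Agmo, which cleaves ether lipids, stood at 27.4, 31.7 and 31.1 in air and 18.5, 16.1, 19, 16.2 and 18.4 after LPS. Id4, an inhibitor of helix-loop-helix factors (-0.81 ± 0.15, adjusted p = 0.00163), and Kcnj2, an inward rectifier potassium channel (51.8, 43.2 and 29.4 in air and 16.6, 16, 30.8, 16.8 and 22.3 after LPS), fell. Kcnj2 overlapped between the groups in LPS mouse 1103.

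Zinc finger genes were among the falls. Of 390 tested genes whose symbols begin with Zfp, Zkscan, Zscan or Zxd, a family counted after the values had been seen, 23 fell and 1 rose (median -0.18), against 1.68% and 2.71% of all genes. Zfp984 stood at 21.6, 21.2 and 24.4 in air and 8.99, 7.61, 14, 9.03 and 13.7 after LPS, and Zfp758 at 10.3, 8.46 and 8.62 in air and 4.17, 3.6, 4.68, 2.79 and 6.5 after LPS, with all LPS mice below all air mice in both. Their median transcript GC content was 44.8%, below the 49.8% of all genes, and reads of such repeated genes may be shared between copies, which makes their values uncertain. Of 71 Rab GTPases of membrane traffic, also counted after the values had been seen, 5 fell and 1 rose.

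**Figure D4:**
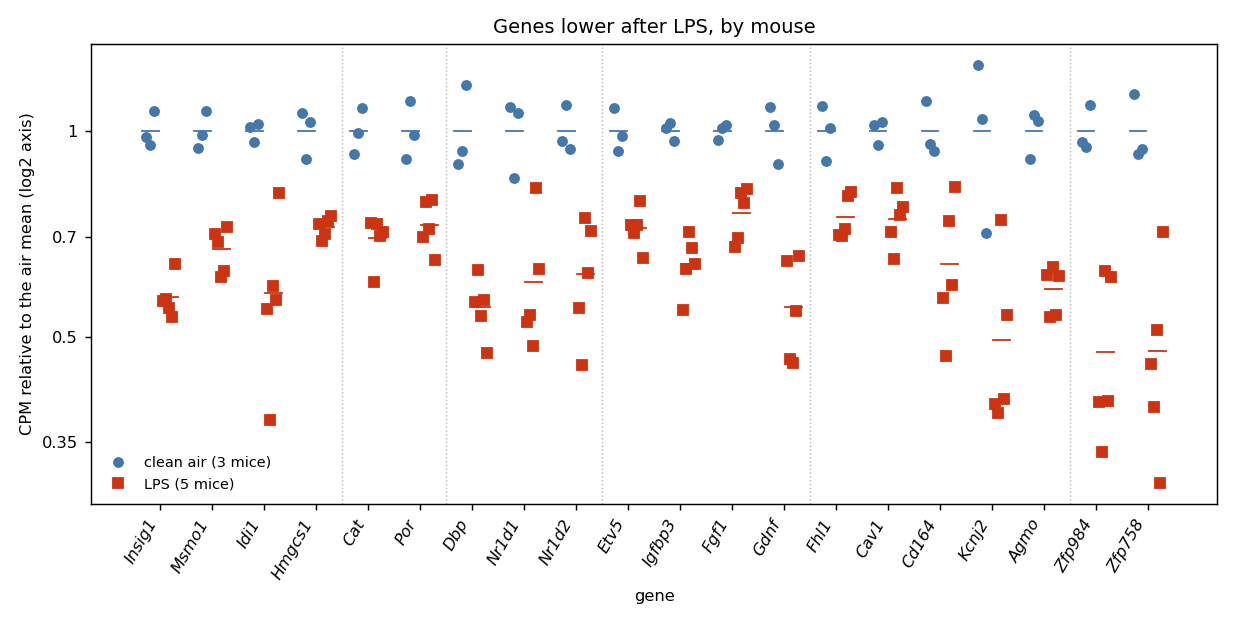
CPM of 20 genes that fell, relative to the air mean, on a log2 axis; blue circles are the 3 air mice, red squares the 5 LPS mice, and short lines the group means. Dotted lines separate sterol, oxidative, clock, growth factor, other and zinc finger genes, and Kcnj2 is the gene shown in which an LPS mouse lies above the lowest air mouse.

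The 14 lists with no call by edgeR hold 236 genes, of which 10 were higher and 14 lower at an unadjusted p under 0.05; DESeq2 called 2 higher and 1 lower, and voom 4 and 1. They include heat shock, the unfolded protein response, the respiratory chain, ribosomal proteins and junctions. The ribosomal list had a median of 0.18 with all 23 genes above 0, yet its level ran from -0.28 to 0.40 in air and from -0.03 to 0.38 after LPS. Over all genes tested, every LPS library was higher than every air library at 911 (5.31%) and lower at 1024 (5.97%). Of the 465 genes that rose 434 met this, and of the 288 that fell 256.

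Among the genes that rose, some varied widely between the LPS mice. Lemd1 stood at 0.289, 0.324 and 0.0378 in air and 3.85, 4.96, 2.89, 2.9 and 7.5 after LPS, and Mab21l3 at 0.577, 0.227 and 0.34 in air and 2.12, 3.2, 1.04, 2.69 and 3.27 after LPS. These were the most variable called rises (average log2 CPM 1 or more) by the SD of log2 CPM among LPS mice, together with Cxcl2, Ccl20, Tnip3, Bcl2a1b, Ccl2 and Ccl12. Cxcl2 stood at 2.13, 1.85 and 2.23 in air and 7.62, 6.91, 5.79, 4.92 and 14 after LPS, and mouse 1105 was highest for Cxcl2, Ccl2, Ccl12 and Lemd1, as it was for Cxcl1 and Cxcl3.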

How the data were processed

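The deposited values are raw read counts per gene, made by the authors on build GRCm38. The submitters' processing notes name HTSeq 0.11.1 beside STAR 2.4.0.1, both Trimmomatic 0.36 and Trimmomatic 0.38, and FastQC 0.11.8. The labels' protocols name a stranded poly(A) kit; whether HTSeq counted by strand is not given in the sources used here. A total of 5 summary lines were left out. Counts of all 23 libraries were filtered by group (17148 of 41388 genes kept), TMM-scaled and fitted with edgeR 4.0.16 quasi-likelihood in R 4.3.3, contrast LPS minus air, with Benjamini-Hochberg adjustment at 0.05 over all genes; the fit was tested on simulated data. The SE of a log2 fold change was derived from the quasi-likelihood test. List levels are means of log2 CPM with a prior count of 2. Counting alternatives used DESeq2 1.42.0, limma 3.58.1, other filters and scalings, a GC offset and left-out libraries. Each library is labelled as 1 mouse. Genes were named by size of change (10 each way in log2 and in CPM) among called genes whose LPS and air libraries did not overlap. Further genes came by list (up to 5 called members each way and 3 uncalled), from a panel of genes, and by the 8 most variable rises. Others were added after their values were seen. The genes and lists were chosen with earlier results of these data known. Promoters come from RefSeq (GRCm38.p6), 1 per gene, matched by symbol for 12474 of the tested genes (72.7%), so shares are given only for lists with at least 80% matched.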

Additional observations from a re-analysis of the deposited data

Results flagged for a closer look

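Among 472 genes examined, 19 had 1 LPS library set apart from the other 4 by more than Dixon's critical value of 0.71 of the group's range, which chance alone gives for about 1 in 20 groups. Of called genes, mouse 1105 was highest for Ccl22 (13.3 CPM) and Ccl2 (4.02 CPM) and lowest for C1qa (45.6 CPM). Mouse 1102 was lowest for Cat (326 CPM), and mouse 1103 highest for Maob (54.6 CPM), which was not called without air 2105 (adjusted p = 0.062). Of genes that were not called, mouse 1105 was lowest for Fgfr2 (244 CPM), Rpl4 (660.4 CPM), Rpl7 (599 CPM), Hba-a1 (265 CPM) and Ly6a (336 CPM) and highest for mt-Nd6 (16.7 CPM). Mouse 1104 was highest for Il4ra (255 CPM), Fasn (704 CPM), Ncr1 (10.3 CPM) and Aqp1 (1308 CPM). Mouse 1103 was highest for Rrm1 (53.1 CPM) and Tollip (131 CPM) and lowest for Il17ra (59.7 CPM), and mouse 1101 was highest for Scd2 (821 CPM).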

How the results depend on the processing

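No named called gene reversed its direction in any alternative, and 145 of 238 named called genes kept their call in all of them. The counts moved more. At an adjusted p under 0.01 there were 351 calls (265 higher, 86 lower), and with the LPS and air libraries fitted alone 354 (268 higher, 86 lower). The number lower was 163 with no filter on low counts, 436 by DESeq2, 173 in the libraries with a low share of mt-Nd6 and 183 with the GC offset. Counts of mt-Nd6 were at most 1.14% of those of mt-Nd5 in the LPS and air libraries. In 8 of the 15 libraries with AAT they were above 2%. The fit without these 8 gave 543 calls against 753 with them. Leaving out 1 library gave 391 to 904 calls, 274 to 509 higher and 117 to 395 lower. Without both LPS 1101 and 1102, chosen after seeing the data, there were 462 calls, 114 of them lower. Deviations of LPS and air mice with the same last digit in their numbers had correlations of -0.00509, -0.0385 and -0.162. These leave out the other groups, so they cannot decide whether the digits mark a block shared across groups. With these digits as a replicate block, 1364 genes were called, 709 of them lower, with 1 T cell marker among the latter. Fits that leave out libraries have fewer samples, and with 3 air mice each of them carries weight; otherwise the cause was not tested.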
